A study of Homo sapiens with 10 samples.

Results

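The genes described here encode the structural, regulatory and assembly parts of the proteasome: the alpha ring and the non-catalytic beta subunits of the 20S core, the ATPases, base and lid of the 19S regulator, the activators and an inhibitor, the assembly chaperones, and the transcription factor NFE2L1. They were chosen by name. A gene was measured where the platform annotation gave at least 1 probe set that carried its symbol alone, and the probe set with the highest mean over the 10 arrays stood for the gene. Of 43 named genes, 38 had such a probe set, and all 38 were among the 14529 genes tested. The 5 others, PSMA6, PSMC5, PSMD7, PSMD13 and PSME2, were not analysed here; the probe sets that carry PSMA6 or PSME2 also carry a second symbol.

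The arrays compared bortezomib-resistant (BR) cells with matched PT cells of HBL2 and JEKO, which are cell lines of mantle cell lymphoma, a tumour of mature B cells. There were 3 HBL2 BR, 3 HBL2 PT, 2 JEKO BR and 2 JEKO PT arrays of biotin-labelled total RNA from cells in logarithmic growth. BR cells carry the label of resistance induced by bortezomib. PT cells carry no such label, and what is known of the study makes them the parental cells. The labels state neither the dose used for selection, nor whether BR cells were clones or were grown with drug before RNA was taken, nor whether replicates were separate cultures. The p-values therefore cover the spread among the arrays of a group, and this spread could be technical.

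The proteasome is a barrel of stacked rings that degrades proteins tagged with ubiquitin. Its outer alpha rings hold the gate and its inner beta rings hold the proteolytic sites, while the 19S regulator binds the ubiquitin chain, removes it and unfolds the substrate with a ring of ATPases. Bortezomib blocks the chymotrypsin-like site formed by PSMB5. When the proteasome is inhibited, NFE2L1 is known to escape degradation and to raise transcription of proteasome genes through antioxidant response elements in their promoters. Dedicated chaperones that are not part of the finished particle build the core and the 19S base.

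The deposited score holds one identical list of values per array, from 0 to 4.99 with a median of 0.73, so a score depends on rank alone. Its base, if it is a logarithm, is not given. Changes are therefore differences in deposited units, not fold changes, and a move of most genes in one direction could not be seen. A gene was called higher or lower where limma's test gave an adjusted p under 0.05, adjusted by Benjamini-Hochberg across the 14529 genes.

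Of the mantle cell lymphoma and B cell markers, CCND1 lay between 2.49 and 3.33 and MS4A1, PAX5, CD79A and CD79B between 2.03 and 3.15 on all arrays, while SOX11 and CD22 lay between 1.08 and 2.10 and CD5 between 0.44 and 1.08, around the array median. The 3 measured markers of T and NK cells (CD3E, CD4 and NCAM1) lay between 0.39 and 1.05. Among the 4 measured myeloid markers, LYZ lay between 0.23 and 0.53 in HBL2 BR, against 0.64 to 1.15 in HBL2 PT, and MPO, ITGAM and CSF1R between 0.25 and 0.87 on all arrays. ITGAM was 0.45, 0.71 and 0.25 in HBL2 BR, against 0.86, 0.85 and 0.87 in HBL2 PT, without overlap. In HBL2, CD79A, CD79B and LYZ were called lower in BR cells (by -0.35, -0.25 and -0.59), and in JEKO CD22 was called higher (0.35). The part of these in the proteasome results was not tested. LYZ reached the array median of 0.73 only on HBL2 PT replicates 1 and 2. A gene needed 2 arrays at that median to be kept, so LYZ was kept only through HBL2 PT. Its call is given as a description. ITGAM, which was not called, reached the median only on the HBL2 PT arrays and was likewise kept only through them. The difference between 5' and 3' probe sets of beta-actin, which falls as RNA degrades, overlapped between the groups: it was -0.69, -0.83 and -1.04 in HBL2 BR, -1.25, -0.86 and -0.58 in HBL2 PT, -0.76 and -1.01 in JEKO BR and -0.70 and -0.82 in JEKO PT. For GAPDH it was -0.24, -0.17 and -0.38 in HBL2 BR and -0.43, -0.27 and -0.44 in HBL2 PT. In JEKO the GAPDH values were -0.31 and -0.64 in BR and -0.39 and -0.30 in PT, lowest on JEKO BR replicate 2. Across all probe sets, arrays of a group correlated at 0.932 to 0.958 and arrays of different lines at 0.892 to 0.913. BR arrays correlated with PT arrays of the same line at 0.917 to 0.939 in HBL2 and 0.930 to 0.942 in JEKO. Both ranges overlap that of arrays within a group.

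The promoters were read because NFE2L1 acts on proteasome genes through the antioxidant response element. The sequences come from RefSeq (GRCh38.p14), matched by symbol for 39 of the 43 genes, and the 250 bases before each annotated start were searched. The core of the element, TGACNNNGC on either strand, occurred in 13 of these 39 genes (33.3%), against 3609 of 27305 genes with such a window (13.2%). A match is a run of letters and not a known site. The 12 stretches of the 11 measured genes with a match are shown with the core in capitals, because they show how its 3 free bases vary between the genes; where the capitals begin with GC the core lies on the opposite strand. The stretch of PSMA4 lies before the last of its 3 annotated starts.
PSMA4 (chr15:78540650-78540678, plus strand): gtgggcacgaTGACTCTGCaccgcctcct
PSMB3 (chr17:38752627-38752655, plus strand): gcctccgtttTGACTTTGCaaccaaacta
ADRM1 (chr20:62302749-62302777, plus strand): cgctcccctaTGACACAGCaacaataggg
PSMD3 (chr17:39980760-39980788, plus strand): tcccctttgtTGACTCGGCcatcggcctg
PSMD12 (chr17:67366724-67366752, minus strand): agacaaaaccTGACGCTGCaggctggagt
PSMD5 (chr9:120843038-120843066, minus strand): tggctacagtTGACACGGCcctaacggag
PSMD9 (chr12:121888631-121888659, plus strand): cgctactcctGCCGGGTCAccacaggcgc
PSMD9 (chr12:121888678-121888706, plus strand): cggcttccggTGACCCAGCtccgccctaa
PSME1 (chr14:24136098-24136126, plus strand): atggcagggcTGACCCCGCctcctccatc
PSME4 (chr2:53971009-53971037, minus strand): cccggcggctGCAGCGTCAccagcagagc
PSMG1 (chr21:39183616-39183644, minus strand): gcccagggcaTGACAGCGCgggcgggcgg
PSMG2 (chr18:12658689-12658717, plus strand): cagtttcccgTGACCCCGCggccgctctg

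Of these 11 genes, only PSMA4 and PSMG1 were called higher in HBL2 BR cells, and none was called lower there. Of all genes tested, 4.91% were called higher and 6.86% lower. The core occurred in 2 of the 5 genes called higher (40%), against 11 of the 34 measured genes with a window (32.4%). The other 3 genes called higher, PSMC1, PSMD6 and PSMD11, had no match in the window. The CCAAT box, a second promoter motif, was added after the values were seen: it occurred on either strand in 18 of the 39 genes (46.2%), against 37% of all genes, and in 3 of the 5 genes called higher. The promoters of PSMC1, which has neither motif, and of PSMG1, which has both, are shown whole for comparison, with both motifs in capitals.
PSMC1 (chr14:90256303-90256552, plus strand): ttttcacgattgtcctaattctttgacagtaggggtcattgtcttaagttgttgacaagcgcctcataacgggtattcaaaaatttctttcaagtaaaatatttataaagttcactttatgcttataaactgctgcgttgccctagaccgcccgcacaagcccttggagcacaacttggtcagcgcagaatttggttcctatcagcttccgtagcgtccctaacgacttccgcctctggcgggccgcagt
PSMG1 (chr21:39183452-39183701, minus strand): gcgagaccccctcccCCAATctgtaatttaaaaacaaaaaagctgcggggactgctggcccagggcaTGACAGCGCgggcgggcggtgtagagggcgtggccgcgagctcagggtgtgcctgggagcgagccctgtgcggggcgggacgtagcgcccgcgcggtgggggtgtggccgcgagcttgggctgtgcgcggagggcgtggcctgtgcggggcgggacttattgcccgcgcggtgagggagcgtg

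The main comparison asks which proteasome genes differ between bortezomib-resistant and matched cells. In HBL2, 5 proteasome genes rose in BR cells (PSMA4, PSMC1, PSMD6, PSMD11 and PSMG1), 1 fell (PSMD2) and the rest were not called. That is 15.8% of the 38, against 11.8% of all genes tested, where 4.91% were called higher and 6.86% lower. Without HBL2 BR replicate 1 or without HBL2 BR replicate 2, 3 genes were called. At an unadjusted p under 0.05, 15 were higher and 3 lower, against 10.7% and 12.8% of all genes. Of the 38 differences, 29 lay above 0, against 49.7% of all genes tested, and the median difference was 0.12, against -0.00099 over all genes. In 15 genes the 3 BR arrays all lay above the 3 PT arrays, and in 5 they all lay below, where 12.8% and 14.5% of all genes did so. In JEKO, none of the 38 genes was called by limma, against 4.28% of all genes tested (2.56% higher and 1.72% lower). With 2 arrays a group, the median SE of the 38 genes was 0.075 in JEKO, against 0.061 in HBL2. A change of the same size was thus harder to call in JEKO. At an unadjusted p under 0.05, 5 were higher and 7 lower in JEKO BR, against 10.2% and 7.45% of all genes, and 17 of 38 differences lay above 0, against 53.4% of all genes. The median difference was -0.042, against 0.012 over all genes, and its sign turned without JEKO BR replicate 2 (0.0036) or JEKO PT replicate 1 (0.036). The JEKO BR arrays all lay above the JEKO PT arrays in 12 genes and below them in 13, where 28.3% and 22.5% of all genes did so.

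**Figure D1:**
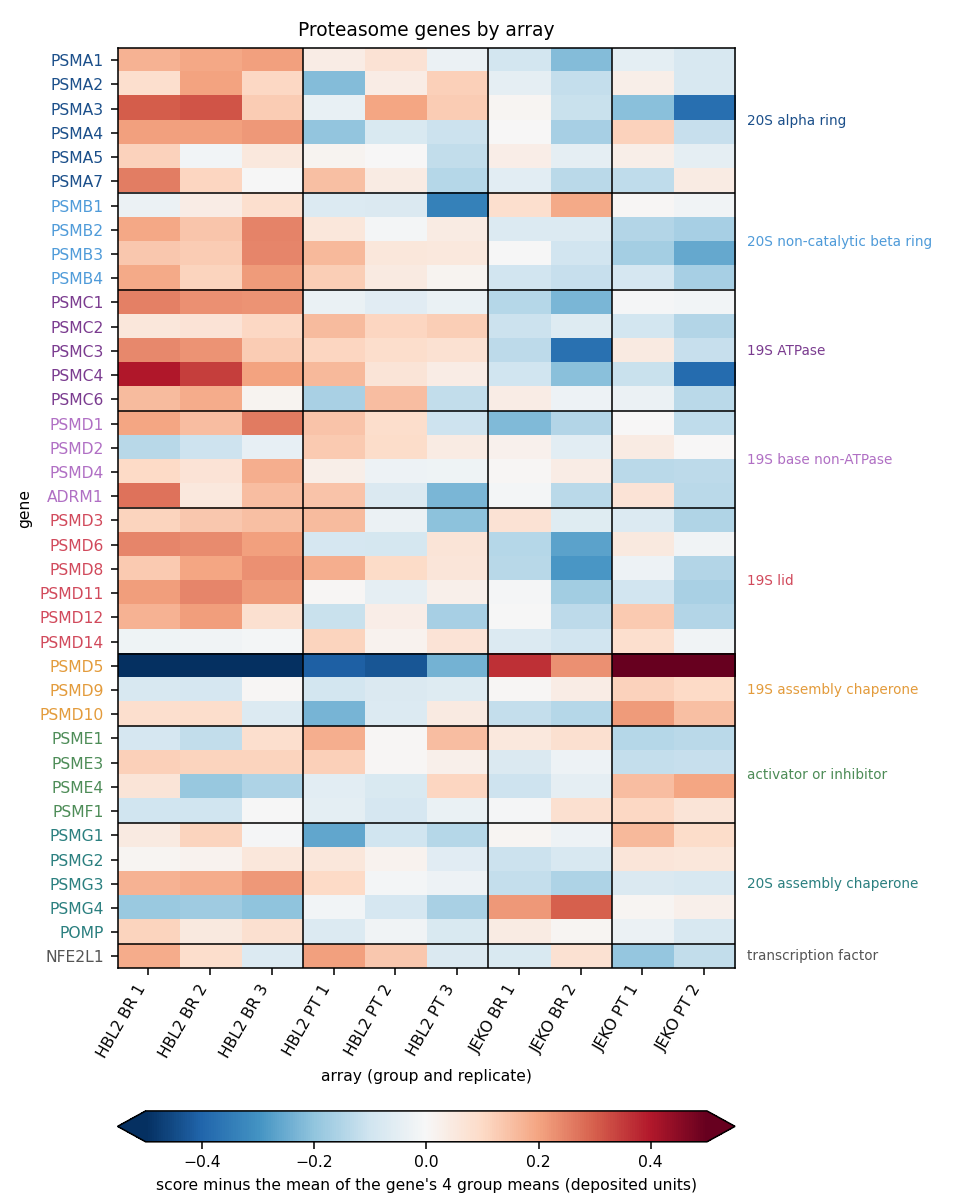
Score of each of the 38 genes on each of the 10 arrays, as the difference from the mean of the gene's 4 group means (deposited units; red higher, blue lower), with genes in rows by subcomplex and arrays in columns by group. On the 3 HBL2 BR arrays 28 to 30 of the genes lie above their own mean, against 9 to 19 on the 4 JEKO arrays, and PSMD5 is blue on all HBL2 arrays and red on all JEKO arrays. PSMD5 passed the filter on low values through JEKO.

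The alpha ring of the 20S core was measured by 6 of its 7 genes, and all 6 differences in HBL2 were above 0, with a median of 0.15. PSMA4, an alpha ring subunit, was the only one called. The score of PSMA4 was 3.15, 3.15 and 3.16 in HBL2 BR, against 2.75, 2.87 and 2.84 in HBL2 PT, a difference of 0.33 ± 0.067 (SE, limma adjusted p = 0.00299). The HBL2 groups did not overlap, and the SD of the 3 BR arrays was 0.0066. In JEKO the scores of PSMA4 were 2.95 and 2.78 in BR, against 3.06 and 2.83 in PT, and these overlapped. PSMA1, which also lay higher on every HBL2 BR array, differed by 0.17 ± 0.055 (adjusted p = 0.0656). PSMA2, PSMA3, PSMA5 and PSMA7 differed by 0.086 to 0.15, with overlapping arrays and adjusted p-values of 0.233 to 0.487. PSMA3 had the largest positive difference of the 38 genes in JEKO, 0.24 ± 0.091, also not called (adjusted p = 0.159), and the median over its probe sets gave -0.18 (adjusted p = 0.329). Its scores were 2.63 and 2.51 in JEKO BR, against 2.41 and 2.25 in JEKO PT, without overlap.

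The 4 non-catalytic beta subunits, which complete the inner rings, differed by 0.077 to 0.19 in HBL2 and by 0.018 to 0.16 in JEKO, with none called. PSMB1 had the highest of these in HBL2, 0.19 ± 0.070 (adjusted p = 0.099), and its lowest array was HBL2 PT replicate 3 at 2.53, against 2.79 to 3.06 on the other 9 arrays. PSMB2 came nearest to a call in HBL2, with scores of 2.89, 2.83 and 2.94 in BR, against 2.75, 2.68 and 2.73 in PT (difference 0.16 ± 0.054, adjusted p = 0.0582). Its direction depended on the probe set: with the median over its probe sets PSMB2 gave -0.13 in HBL2 and -0.074 in JEKO (adjusted p = 0.258 and 0.71), and with _x_at and _s_at probe sets left out -0.15 and -0.18 (adjusted p = 0.252 and 0.327). The 6 catalytic and immunoproteasome subunits, a list set beside these genes, did not move as one. PSMB6, a catalytic subunit, rose by 0.35 ± 0.054 in HBL2 (adjusted p = 3.82e-04), while PSMB8 and PSMB9, subunits of the immunoproteasome, fell by 0.37 ± 0.059 and 0.36 ± 0.065. PSMB5, the target of bortezomib, was not called in either line. Of this list 50% was called in HBL2, against 11.8% of all genes tested.

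Among the 5 measured ATPases of the 19S base, PSMC1, whose tail helps to open the gate of the core, was the only one called in HBL2. PSMC1 scored 2.68, 2.66 and 2.65 in HBL2 BR, against 2.39, 2.37 and 2.39 in HBL2 PT, a difference of 0.28 ± 0.052 (limma adjusted p = 0.00201). In JEKO it scored 2.28 and 2.20 in BR, against 2.42 and 2.42 in PT, a difference of -0.18 ± 0.064 that was not called (adjusted p = 0.144). The arrays of the groups overlapped in neither line, and the direction was opposite. PSMC4 differed by 0.23 ± 0.076 in HBL2 (adjusted p = 0.0648), with every BR array above every PT array, and PSMC3 by 0.11 ± 0.069 in HBL2 and -0.22 ± 0.084 in JEKO (adjusted p = 0.382 and 0.181). PSMC2 was the 1 measured ATPase gene with a difference under 0 in HBL2, at -0.053 ± 0.052, with every BR array below every PT array.

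The 4 measured non-ATPase genes of the base encode scaffolds and ubiquitin receptors. PSMD2, the scaffold that binds shuttle factors and the deubiquitinase USP14, was the only one of the 38 genes called lower in HBL2. It scored 2.08, 2.12 and 2.18 in HBL2 BR, against 2.35, 2.31 and 2.26 in HBL2 PT, a difference of -0.18 ± 0.056 (limma adjusted p = 0.0463). The groups did not overlap, but this call lay close to the threshold: it held in 8 of 21 alternatives. It was lost when HBL2 BR replicate 1 was left out (adjusted p = 0.175), and likewise for HBL2 BR replicate 2 (0.155), HBL2 PT replicate 1 (0.0996) or HBL2 PT replicate 2 (0.11), and without any 1 of the 4 JEKO arrays (0.061 to 0.0659). The other scaffold, PSMD1, differed by 0.16 ± 0.069 (adjusted p = 0.159), and the ubiquitin receptors PSMD4 and ADRM1 by 0.12 ± 0.054 and 0.21 ± 0.088 (adjusted p = 0.172 and 0.152). In JEKO the 4 differences ran between -0.12 and 0.15, with none called.

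**Figure D2:**
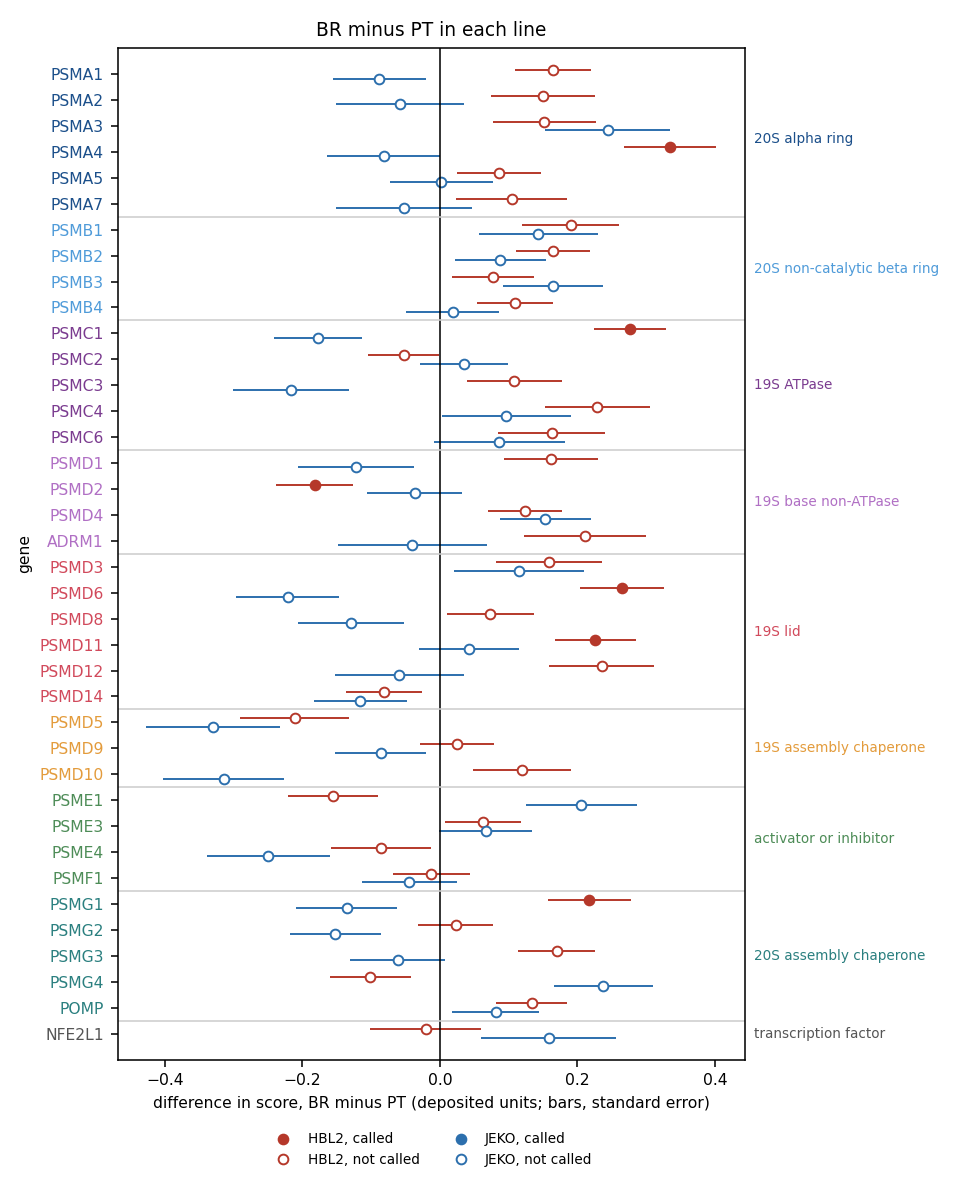
Difference in score between BR and PT cells for each of the 38 genes (horizontal axis, deposited units; bars, standard error of the limma fit), in HBL2 (red) and in JEKO (blue); filled points are called at an adjusted p under 0.05. In HBL2, 29 of 38 points lie right of 0 and 6 are filled, and in JEKO 17 lie right of 0 and none is filled.

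The lid carries the deubiquitinase PSMD14 and a horseshoe of scaffold subunits. Of 6 measured lid genes, PSMD6 and PSMD11 rose in HBL2. PSMD6 scored 2.52, 2.51 and 2.48 in HBL2 BR, against 2.19, 2.19 and 2.34 in HBL2 PT, a difference of 0.26 ± 0.061 (limma adjusted p = 0.0083). When the median of its probe sets stood for the gene, the adjusted p was 0.0747. In JEKO it scored 2.13 and 2.01 in BR, against 2.32 and 2.26 in PT, the opposite direction and without overlap, but not called (-0.22 ± 0.075, adjusted p = 0.116). PSMD11, the subunit that clamps the regulator to the core, scored 2.40, 2.44 and 2.40 in HBL2 BR, against 2.20, 2.15 and 2.22 in HBL2 PT. Its difference of 0.23 ± 0.059 (limma adjusted p = 0.0181) was lost without HBL2 BR replicate 1 (0.0549), HBL2 BR replicate 2 (0.0868) or HBL2 PT replicate 2 (0.0732), with the median over probe sets (0.0596) and without _x_at and _s_at probe sets (0.265). In JEKO its groups overlapped (difference 0.042). PSMD12 lay higher on every HBL2 BR array without a call (0.24 ± 0.077, adjusted p = 0.0585), and the arrays of PSMD3 and PSMD8 overlapped. PSMD14 was 2.17, 2.17 and 2.18 in HBL2 BR, against 2.30, 2.21 and 2.26 in HBL2 PT, a difference of -0.081 ± 0.055 (adjusted p = 0.42).

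Chaperones of the 20S core included the remaining rise. PSMG1, which with PSMG2 guides assembly of the alpha ring, scored 2.18, 2.25 and 2.13 in HBL2 BR, against 1.88, 2.04 and 1.99 in HBL2 PT. In JEKO it scored 2.15 and 2.11 in BR, against 2.30 and 2.23 in PT. The HBL2 groups did not overlap and differed by 0.22 ± 0.060 (limma adjusted p = 0.0263), a call that held in 15 of 21 alternatives. It was lost without HBL2 BR replicate 1 (0.0771), HBL2 BR replicate 2 (0.144) or HBL2 PT replicate 1 (0.0798), with no intensity trend (0.0558) and with HBL2 fitted alone (0.0598). Leaving out the 3 arrays of lowest beta-actin difference also lost it. Its partner PSMG2 differed by only 0.023 ± 0.054. PSMG3 was 0.17 ± 0.056 higher in HBL2 BR (adjusted p = 0.0631), whereas PSMG4, its partner, differed by -0.10 ± 0.058 (adjusted p = 0.327); in JEKO PSMG4 scored 1.99 and 2.07 in BR, against 1.78 and 1.80 in PT (0.24 ± 0.071, adjusted p = 0.0755). POMP, which joins the beta subunits to the growing core, differed by 0.13 ± 0.052 in HBL2 (adjusted p = 0.118) and by 0.081 ± 0.064 in JEKO.

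Of the 3 chaperones of the 19S base, PSMD5 and PSMD10 had the most negative differences of the 38 genes in JEKO, and PSMD9 differed by -0.086 ± 0.067. PSMD10, also known as gankyrin, scored 1.78 and 1.76 in JEKO BR, against 2.11 and 2.05 in JEKO PT (-0.31 ± 0.088, adjusted p = 0.0562). In HBL2 it was 1.99, 1.99 and 1.83 in BR, against 1.67, 1.83 and 1.95 in PT, with overlap. PSMD5 scored 1.35 and 1.21 in JEKO BR, against 1.58 and 1.64 in JEKO PT (-0.33 ± 0.098, adjusted p = 0.0709). Both stood just outside the threshold. Their JEKO groups did not overlap, but 22.5% of all genes also lay lower in JEKO BR without overlap. PSMD10 was called without HBL2 BR replicate 3 (adjusted p = 0.0483), HBL2 PT replicate 1 (0.0224) or HBL2 PT replicate 3 (0.0199), which add only to the shared estimate of spread. Without HBL2 PT replicate 3, PSMD5, PSMD6 and PSMG4 were called in JEKO as well, and without HBL2 PT replicate 1 PSMG4 was. In HBL2, PSMD5 was 0.33, 0.48 and 0.43 in BR, against 0.57, 0.56 and 0.75 in PT, a difference of -0.21 ± 0.080 in the same direction (adjusted p = 0.106). On every HBL2 array except PT replicate 3 it lay below the array median of 0.73, so this difference is between low values.

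The activators PSME1, PSME3 and PSME4 and the inhibitor PSMF1 were the 4 measured genes of their group. In HBL2, 1 of their differences lay above 0 and none was called. PSME1, a subunit of the interferon-inducible activator, was 2.41, 2.37 and 2.58 in HBL2 BR, against 2.67, 2.50 and 2.65 in HBL2 PT (-0.16 ± 0.066, adjusted p = 0.155). In JEKO it was 2.55 and 2.57 in BR, against 2.35 and 2.36 in PT (0.21 ± 0.081, adjusted p = 0.187). PSME4, a nuclear activator, differed by -0.25 ± 0.089 in JEKO (adjusted p = 0.139), and its 2 other probe sets by -0.18 and -0.30. NFE2L1 itself differed by -0.021 ± 0.080 in HBL2 and by 0.16 ± 0.098 in JEKO, with adjusted p-values of 0.918 and 0.448. NFE2L1 is known to be controlled at the protein level, which these arrays do not measure.

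The next comparison asks whether the BR minus PT change differs between the lines. It shares its arrays with the comparisons within each line, so its values stand beside theirs and add no independent support. The change was called different in 7 of 38 genes, 18.4% against 8.71% of all genes tested, with 5 more positive in HBL2 and 2 more negative, where 2.95% and 5.76% of all genes were. The difference lay above 0 in 29 of 38 genes, against 47.9% of all genes, and at an unadjusted p under 0.05 there were 10 above and 2 below, against 8.94% and 13.1%. The median difference between the changes was 0.11, against -0.011 over all genes. PSMC1 and PSMD6, genes of the base and the lid, led, with 0.45 ± 0.083 and 0.49 ± 0.097 (limma adjusted p = 0.00258 and 0.0047). PSMD10 followed with 0.43 ± 0.11, PSMA4 with 0.42 ± 0.11 and PSMG1 with 0.35 ± 0.095 (limma adjusted p = 0.0241, 0.021 and 0.0289). PSME1 and PSMG4 differed the other way, by -0.36 ± 0.104 and -0.34 ± 0.092 (limma adjusted p = 0.0408 and 0.0299).

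**Figure D3:**
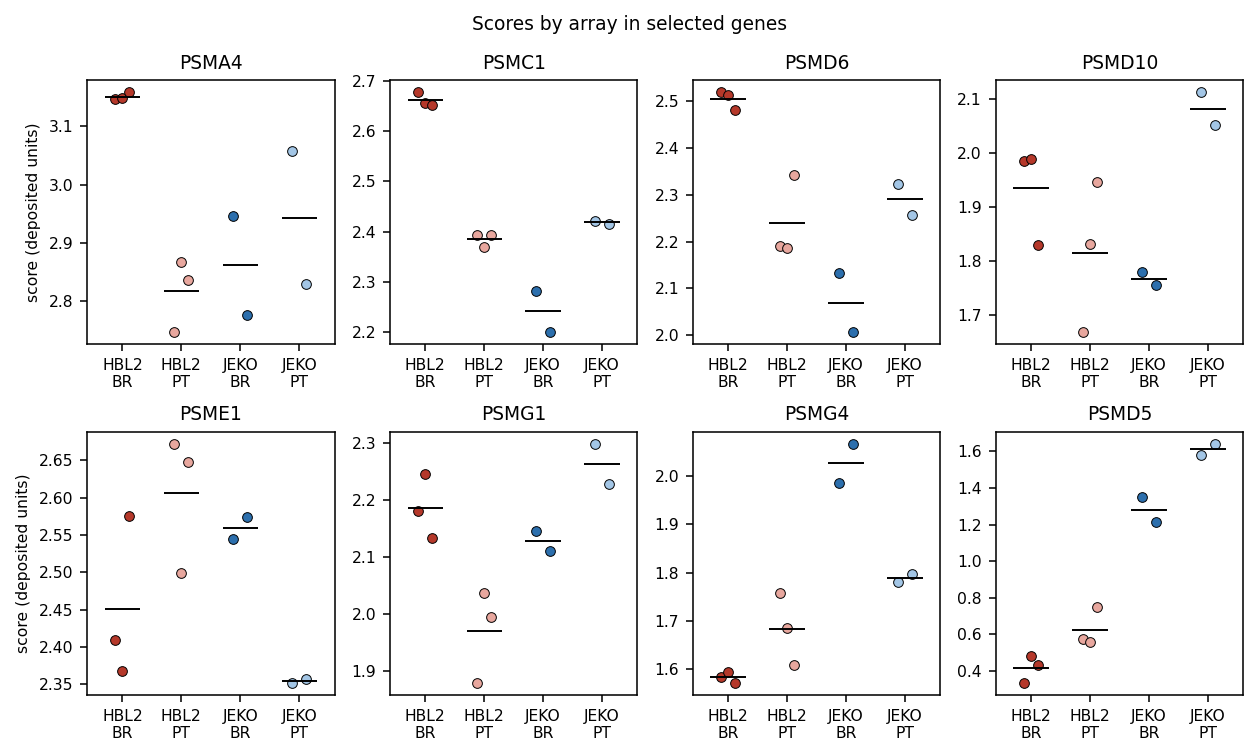
Scores on each array (points, deposited units; each panel has its own vertical scale, which does not start at 0) and group means (lines) of the 7 genes whose change was called different between the lines, and of PSMD5, in HBL2 BR, HBL2 PT, JEKO BR and JEKO PT. For PSMC1 and PSMD6 the BR arrays lie above PT in HBL2 and below PT in JEKO, and for PSMD5 all 6 HBL2 arrays lie below all 4 JEKO arrays. PSMD5 passed the filter on low values through JEKO.

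Of these 7 calls, that of PSMC1 was kept in all 19 alternatives that gave a value. The call of PSMD6 was lost when the median of all its probe sets was used (adjusted p = 0.133). It was also lost when the 3 arrays with the lowest beta-actin difference were left out (0.0583), an alternative chosen after seeing the data. The other 5 calls were each lost under several alternatives, among them the loss of single arrays. Without _x_at and _s_at probe sets PSMG4 gave -0.044 (adjusted p = 0.936). Without JEKO BR replicate 2 or without JEKO PT replicate 1 only 2 of the 7 remained, and without HBL2 BR replicate 1, HBL2 BR replicate 2 or JEKO PT replicate 2 only 3; without JEKO BR replicate 1, 3 of the 7 remained and 4 were called in all. With the 3 arrays of lowest beta-actin difference left out (JEKO BR replicate 2, HBL2 BR replicate 3 and HBL2 PT replicate 1), PSMC1 alone was called, and the median difference was 0.090. With the beta-actin difference as a covariate instead, 8 genes were called, the 7 among them.

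In PT cells, the comparison of HBL2 with JEKO gives the difference of the lines without selection for resistance. Of the 38 genes, 7 were higher and 4 lower in HBL2, 28.9% against 23.1% of all genes tested (13.9% higher and 9.25% lower). This count and the others of this comparison include PSMD5 among the lower genes. Its passing the filter had fixed that difference, as described below. At an unadjusted p under 0.05, 10 were higher and 6 lower, against 19.8% and 13.9%. The difference lay above 0 in 23 of 38 genes, against 52.8% of all genes, with a median difference of 0.048, against 0.014 over all genes. Every HBL2 PT array lay above the JEKO PT arrays in 15 genes and below them in 9, where 26.3% and 20.9% of all genes did so. PSMD5, which is known to hold back assembly of the 19S regulator with the core, scored 0.57, 0.56 and 0.75 in HBL2 PT, against 1.58 and 1.64 in JEKO PT, a difference of -0.98 ± 0.089. It lay above the array median of 0.73 only on the 4 JEKO arrays and on HBL2 PT replicate 3, so it passed the filter on low values through JEKO and had to differ between the lines; its values are given as a description. With the median over its probe sets the difference was -0.43. A second probe set of PSMD5, which did not pass the filter, differed by 0.13 in the other direction. The other base chaperones PSMD9 and PSMD10 were called lower in HBL2 PT, by -0.18 ± 0.061 and -0.27 ± 0.080 (limma adjusted p = 0.0374 and 0.0238). PSMD10 gave -0.44 without _x_at and _s_at probe sets, and with the median over probe sets PSMD9 gave -0.064 (adjusted p = 0.554). PSMD9 scored 1.90, 1.92 and 1.93 in HBL2 PT, against 2.11 and 2.09 in JEKO PT, and in BR cells 1.92, 1.91 and 1.9999 in HBL2, against 2.001 and 2.03 in JEKO. The call of PSMD9 held in 8 of 19 alternatives and was lost without most single arrays. PSMG1 was also lower, at -0.29 ± 0.067 (adjusted p = 0.00456).

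Higher in HBL2 PT were the alpha subunit PSMA3 (0.39 ± 0.083), the beta subunits PSMB2 (0.18 ± 0.060), PSMB3 (0.30 ± 0.067) and PSMB4 (0.19 ± 0.062), the ATPases PSMC2 (0.25 ± 0.058) and PSMC4 (0.34 ± 0.085) and the activator PSME1 (0.25 ± 0.074), with limma adjusted p-values from 0.0028 to 0.0406. PSMB3 scored 2.85, 2.75 and 2.75 in HBL2 PT, against 2.52 and 2.43 in JEKO PT. PSMB4 scored 3.16, 3.08 and 3.05 in HBL2 PT, against 2.95 and 2.87 in JEKO PT, and PSMB2 2.55 and 2.53 in JEKO PT. PSMC2 scored 2.87, 2.82 and 2.83 in HBL2 PT, against 2.62 and 2.56 in JEKO PT. The groups of these genes did not overlap, but the calls of PSMB2 and PSMB4 each held in only 8 of 20 alternatives. With the median over probe sets PSMB2 gave 0.11 and PSMC2 0.0084 (adjusted p = 0.32 and 0.947), and with _x_at and _s_at probe sets left out PSMB2 gave 0.055 and PSMC2 -0.021 (adjusted p = 0.713 and 0.896). PSMC4 scored 1.88, 1.78 and 1.76 in HBL2 PT, against 1.61 and 1.33 in JEKO PT, so the groups did not overlap and the JEKO arrays lay far apart. PSMA3 scored 2.59, 2.82 and 2.75 in HBL2 PT, against 2.41 and 2.25 in JEKO PT. The direction of PSMA3 depended on the probe set: its other 2 probe sets, with means of 0.67 and 0.75, differed by -0.24 and -0.27, and the median over its probe sets by -0.29 (adjusted p = 0.0164). All 7 higher calls were lost without JEKO PT replicate 2, which left PSMD5 and PSMG1 as the 2 calls; without JEKO PT replicate 1 there were 5 calls and without HBL2 PT replicate 1 there were 6.

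The same comparison was made in BR cells. Of the 38 genes, 15 were higher and 2 lower in HBL2 BR than in JEKO BR, 44.7% against 28.1% of all genes tested, where 14% of all genes were called higher and 14.1% lower. This count and the others of this comparison include PSMD5 among the lower genes, a difference that its passing the filter had fixed. The median difference was 0.17, against 0.0060 over all genes, and 30 of 38 differences lay above 0, against 51.3% of all genes. No HBL2 BR array overlapped the JEKO BR arrays in 26 genes that were higher and 3 that were lower, where 28% and 26.6% of all genes did so. This comparison shares arrays with those within each line, and its values stand beside theirs.

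**Figure D4:**
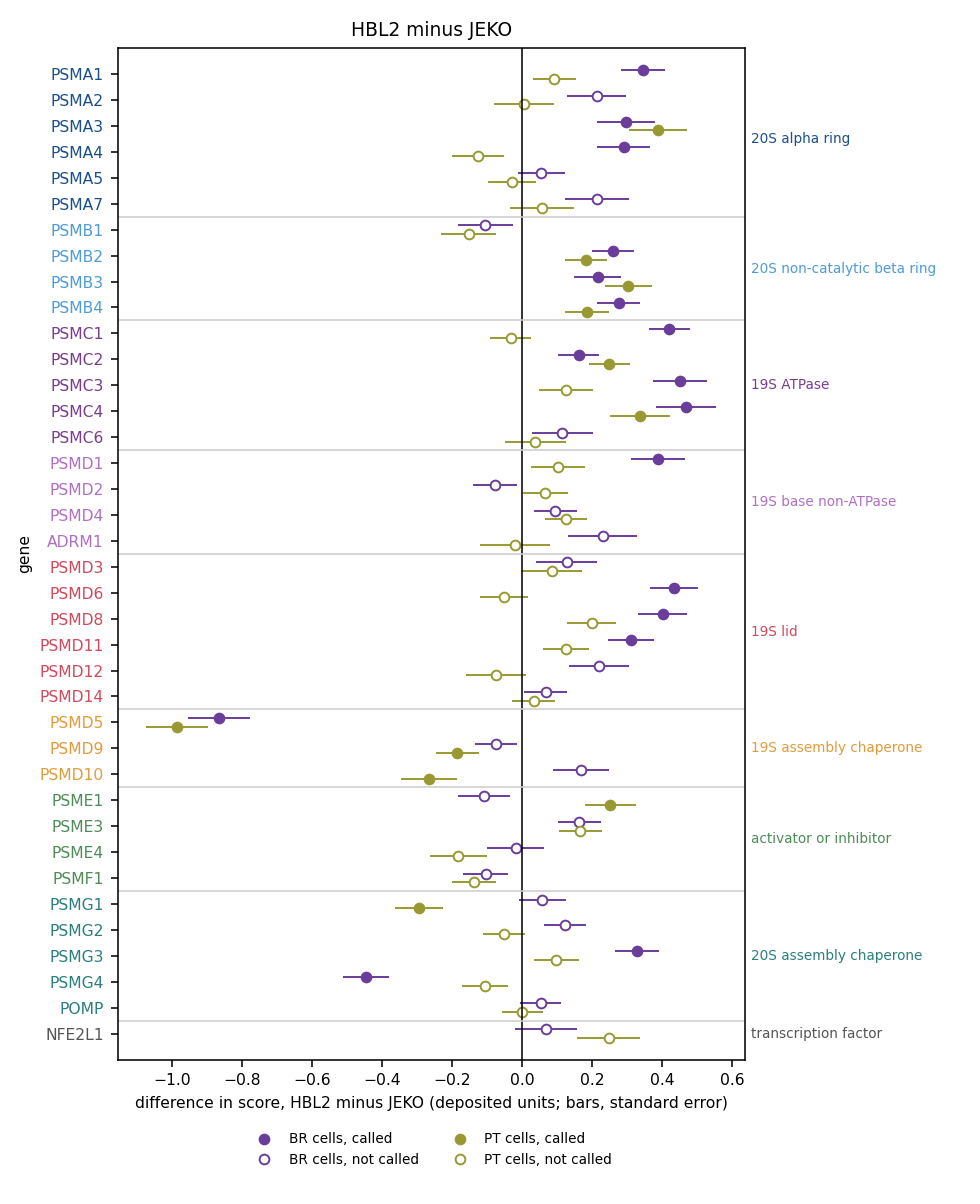
Difference in score between HBL2 and JEKO for each of the 38 genes (horizontal axis, deposited units; bars, standard error of the limma fit), in BR cells (purple) and in PT cells (olive); filled points are called at an adjusted p under 0.05. In BR cells 30 of 38 points lie right of 0, and PSMD5 lies far to the left in both, at -0.87 in BR cells and -0.98 in PT cells. PSMD5 passed the filter on low values through JEKO.

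The calls in BR cells were spread over the core, the base, the lid and the chaperones. In the core they were PSMA1, PSMA3, PSMA4, PSMB2, PSMB3 and PSMB4, with differences of 0.22 to 0.35. Without JEKO BR replicate 2 the calls of PSMA3, PSMA4, PSMB3, PSMC2 and PSMD11 were lost, without HBL2 BR replicate 1 or replicate 2 that of PSMA3, and without HBL2 BR replicate 3 that of PSMB3. With the median over probe sets PSMB2 gave 0.054 and PSMA3 0.17 (adjusted p = 0.64 and 0.127), and with _x_at and _s_at probe sets left out PSMB2 gave 0.088 (adjusted p = 0.506). With the 3 arrays of lowest beta-actin difference left out, PSMB3 gave 0.13 (adjusted p = 0.261). PSMA1 scored 3.10, 3.12 and 3.13 in HBL2 BR, against 2.83 and 2.71 in JEKO BR (0.35 ± 0.062, limma adjusted p = 5.17e-04), and 2.96, 2.998 and 2.89 in HBL2 PT, against 2.87 and 2.84 in JEKO PT. PSMB2 scored 2.62 and 2.62 in JEKO BR. PSMB3 scored 2.83, 2.82 and 2.94 in HBL2 BR, against 2.69 and 2.60 in JEKO BR, and PSMB4 3.22, 3.15 and 3.25, against 2.94 and 2.92. All these core genes were without overlap in BR cells. Of the 5 ATPases, 4 were called higher in HBL2 BR, with PSMC4 at 0.47 ± 0.085, PSMC3 at 0.45 ± 0.077, PSMC1 at 0.42 ± 0.059 and PSMC2 at 0.16 ± 0.058. PSMC3 scored 2.54, 2.52 and 2.42 in HBL2 BR, against 2.16 and 1.92 in JEKO BR. PSMC4 scored 2.12, 2.07 and 1.92 in HBL2 BR, against 1.62 and 1.51 in JEKO BR, and PSMC2 2.77, 2.78 and 2.82, against 2.61 and 2.65. The ATPase genes named here were all without overlap. The call of PSMC2 was near the threshold (limma adjusted p = 0.0486) and held in 5 of 20 alternatives; the median over its probe sets differed by -0.017 (adjusted p = 0.881).

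In the 19S base and lid, PSMD1 (0.39 ± 0.077), PSMD6 (0.44 ± 0.068), PSMD8 (0.40 ± 0.071) and PSMD11 (0.31 ± 0.066) were called higher in HBL2 BR, with limma adjusted p-values from 1.62e-04 to 0.00207. Without _x_at and _s_at probe sets PSMD11 gave 0.19 (adjusted p = 0.164), and with the median over probe sets PSMD6 gave 0.26 (adjusted p = 0.035). PSMD8, a lid subunit, scored 2.28, 2.35 and 2.38 in HBL2 BR, against 2.01 and 1.86 in JEKO BR. PSMD1 scored 2.43, 2.38 and 2.49 in HBL2 BR, against 2.01 and 2.08 in JEKO BR, and PSMD11 2.19 and 2.02 in JEKO BR. PSMG3 scored 2.07, 2.08 and 2.11 in HBL2 BR, against 1.77 and 1.74 in JEKO BR, and was the chaperone called higher (0.33 ± 0.063, limma adjusted p = 8.96e-04). PSMG4 was lower, at 1.58, 1.59 and 1.57 in HBL2 BR, against 1.99 and 2.07 in JEKO BR (-0.44 ± 0.065, limma adjusted p = 8.77e-05), although without _x_at and _s_at probe sets, which can bind more than 1 transcript, another probe set of PSMG4 gave -0.21 (adjusted p = 0.271). PSMD5 differed by -0.87 ± 0.089 in BR cells, and by -0.33 with the median over its probe sets; this comparison too is one that its passing the filter had fixed.

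Read by array, the 38 genes lay highest on the HBL2 BR arrays. The median deviation from the gene's own mean over groups was 0.13, 0.11 and 0.10 in HBL2 BR and 0.033, 0.0043 and -0.028 in HBL2 PT. In JEKO it was -0.028 and -0.087 in BR and -0.0016 and -0.097 in PT, while the median of all genes tested stayed between -0.011 and 0.026 on every array. The ATPases spanned the widest range of the ring, ATPase and lid groups, from 0.24 on HBL2 BR replicate 1 to -0.21 on JEKO BR replicate 2. In the 3 base chaperones the order was different, from 0.21 and 0.15 in JEKO PT to -0.23 on HBL2 PT replicate 1. These chaperones include PSMD5, which passed the filter on low values through JEKO. The median SD within groups was 0.066, against 0.095 over all genes tested. This was not particular to the 38 genes. In HBL2 their median SE was 0.061, against 0.058 for the catalytic and immunoproteasome subunits and 0.076 over all genes. The lists of genes that act next to the proteasome, read below, had 0.058 to 0.071.

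**Figure D5:**
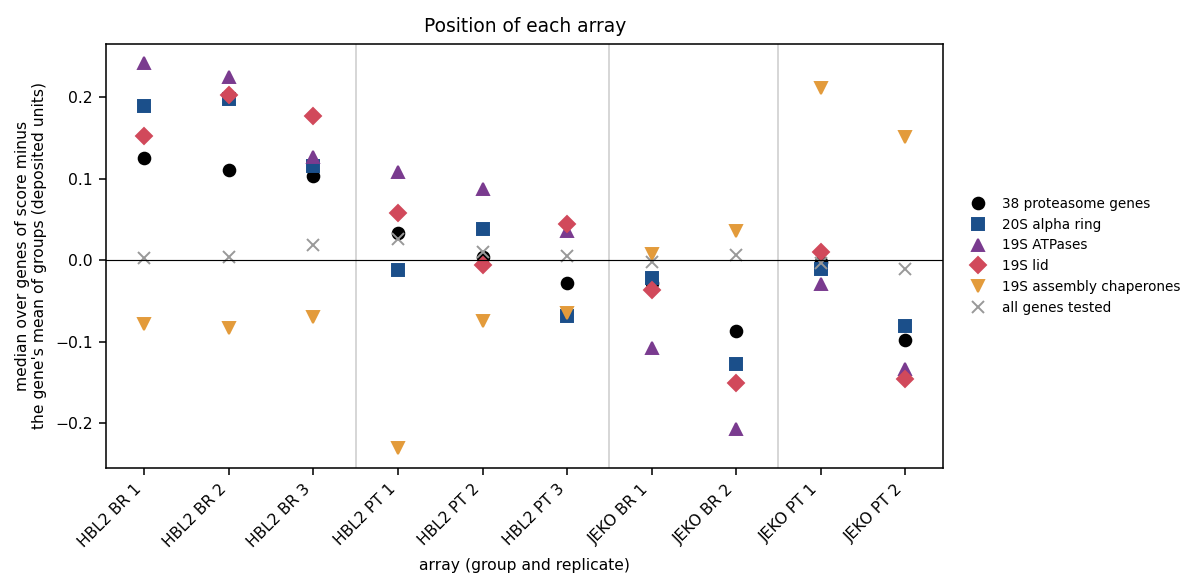
Median over genes of the score minus the gene's mean over the 4 groups (vertical axis, deposited units), for all 38 genes, for 4 of their subcomplexes and for all genes tested, on each of the 10 arrays (horizontal axis). The 38 genes lie at 0.10 to 0.13 on the HBL2 BR arrays and between -0.097 and 0.033 on the other 7 arrays, and the 19S assembly chaperones lie highest in JEKO PT. These chaperones include PSMD5, which passed the filter on low values through JEKO.

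Where a gene had further probe sets past the filter, their signs agreed in part. There were 34 such probe sets in 21 genes, and 22 of the 34 had the sign of the probe set used in HBL2, 23 in JEKO and 21 for the difference between the changes. For HBL2 minus JEKO, 23 had that sign in PT cells and 30 in BR cells. PSMD1, for example, differed by 0.17 in HBL2 with its second probe set, and PSMA7 by 0.22, whereas both other probe sets of PSMB2 past the filter differed by -0.11 and -0.15.

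Genes that act next to the proteasome were read from lists chosen with earlier results known. Of 15 measured associated receptors, shuttles and deubiquitinases, 1 was called in HBL2, ECPAS, which binds proteasomes under stress, at 0.41 ± 0.10 (limma adjusted p = 0.015), and 1 in JEKO, the ubiquitin ligase UBE3C at 0.31 ± 0.082 (limma adjusted p = 0.0401). ECPAS scored 2.36, 2.38 and 2.40 in HBL2 BR, against 2.10, 2.20 and 1.63 in HBL2 PT. Each array was left out in turn for the genes of these lists, an alternative chosen after seeing the data. Without HBL2 PT replicate 3 ECPAS gave 0.23 (adjusted p = 0.0122), and without HBL2 BR replicate 3 its call was lost (0.0514). The call of UBE3C was lost without any 1 of the 4 JEKO arrays (adjusted p = 0.112 to 0.285) and without HBL2 BR replicate 1, HBL2 BR replicate 2 or HBL2 PT replicate 2 (0.0569 to 0.0623). Between the lines the same list held the lid subunit SEM1 and the proteasome-bound thioredoxin TXNL1, higher in HBL2 than in JEKO by 0.56 ± 0.092 and 0.58 ± 0.060 in BR cells and by 0.49 ± 0.092 and 0.53 ± 0.060 in PT cells (limma adjusted p from 2.31e-06 to 0.00108). In that list 7 genes were called in BR cells (46.7%, against 28.1% of all genes) and 6 in PT cells (40%, against 23.1%). Within each line 6.67% of it was called, against 11.8% of all genes in HBL2 and 4.28% in JEKO.

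Of the 7 measured genes that process NFE2L1 or partner it, the segregase VCP rose by 0.20 ± 0.058 in HBL2 (limma adjusted p = 0.0356), and the related factor NFE2L2 fell by 0.26 ± 0.063 (limma adjusted p = 0.0108). Of 9 measured genes of VCP and its cofactors, FAF1 fell by 0.52 ± 0.056 and UBXN7 by 0.27 ± 0.061 in HBL2. The calls of FAF1 and UBXN7 were kept with any 1 of the 10 arrays left out. That of VCP was kept only without HBL2 BR replicate 3 or HBL2 PT replicate 3 (adjusted p = 0.0508 to 0.166 without each other array), and that of NFE2L2 was lost without HBL2 BR replicate 3 or HBL2 PT replicate 2 (0.054 for each). FAF1 scored 1.19, 1.20 and 1.17 in HBL2 BR, against 1.75, 1.64 and 1.73 in HBL2 PT. The COP9 signalosome, whose subunits resemble those of the lid, had 1 gene higher (COPS2, 0.31 ± 0.077) and 2 lower (COPS7B, -0.26 ± 0.062, and COPS8, -0.26 ± 0.063) of 9 in HBL2. None was called in JEKO, where 1 of 9 passed an unadjusted p under 0.05, against 17.6% of all genes. COPS2 gave 0.20 without HBL2 PT replicate 3 (adjusted p = 0.0322), and its call was lost without HBL2 BR replicate 1 (0.0549) or HBL2 BR replicate 2 (0.0721). The call of COPS7B was lost without HBL2 BR replicate 2 (0.0887) and that of COPS8 without HBL2 BR replicate 3 (0.0526). The TRiC chaperonin, a folding machine of the cytosol, had CCT6A higher (0.29 ± 0.068) and CCT5 lower (-0.22 ± 0.064) of 7 in HBL2, and CCT7 lower in JEKO (-0.30 ± 0.070, limma adjusted p = 0.0229). These are 28.6% in HBL2 and 14.3% in JEKO, against 11.8% and 4.28% of all genes. For TRiC, 6 of 7 differences lay above 0 in HBL2 (median 0.10), and 6 of 7 for the difference between the changes. VCP with its cofactors and the COP9 signalosome each had 33.3% called in HBL2. Each had 6 of 9 differences above 0 there, with medians of 0.046 and 0.0054. Of the NFE2L1 list, 28.6% was called in HBL2. The call of CCT6A was lost without HBL2 BR replicate 1 or HBL2 BR replicate 2, that of CCT5 without any 1 HBL2 array other than PT replicate 1, and that of CCT7 without JEKO BR replicate 2, JEKO PT replicate 1 or JEKO PT replicate 2 (adjusted p = 0.0547 to 0.268). None of 3 measured ubiquitin and activating enzyme genes was called by limma in either line. At an unadjusted p under 0.05 there were 0 in HBL2, against 23.5% of all genes. In JEKO 1 was higher and 1 lower at that threshold, against 10.2% and 7.45% of all genes.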

How the data were processed

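Messenger RNA was measured on 10 Affymetrix arrays, and the values used are the scores that the authors deposited for 54675 probe sets. Per the submitters' processing notes MAS5 was used, with no version named; what followed is not given in the sources used here. Gene symbols came from the platform annotation, and 41091 probe sets carried 1 symbol. Probe sets that reached the 50th percentile of the array on 2 or more arrays were kept, and each gene was read from its probe set of highest mean. The software was limma 3.58.1 under R 4.3.3. One model with 4 group means and 6 residual degrees of freedom was fitted, variances were moderated with a trend on intensity, tests were two-sided, and the code was tested on simulated data. Values after ± are standard errors. Promoters were searched with Python 3.11.15.

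The genes and lists were chosen with earlier results of these data known. All 38 measured genes could be named, called ones with their arrays, and at most 4 called genes per other list and comparison. The number of arrays limits precision, and no detection calls were used. The 21 alternatives are described in the closing section.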

Additional observations from a re-analysis of the deposited data

Results flagged for a closer look

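The BR minus PT change differed between HBL2 and JEKO in 7 of the 38 genes by limma's test of the difference itself, and each is listed for that reason. In units of HBL2 change minus JEKO change, the values were 0.45 for PSMC1, 0.49 for PSMD6, 0.43 for PSMD10, 0.42 for PSMA4 and 0.35 for PSMG1. They were -0.36 for PSME1 and -0.34 for PSMG4, which gave -0.044 (adjusted p = 0.936) without _x_at and _s_at probe sets. In HBL2 the 7 differences were 0.28, 0.26, 0.12, 0.33, 0.22, -0.16 and -0.10, and in JEKO -0.18, -0.22, -0.31, -0.082, -0.14, 0.21 and 0.24, in the same order. Groups had 2 or 3 arrays, so no single array was tested for standing apart.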

How the results depend on the processing

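The counts of proteasome genes called, 6 in HBL2, 0 in JEKO, 7 for the difference between the changes, 11 between the lines in PT cells and 17 in BR cells, were recomputed under 21 alternatives within each line and 20 for the 3 other comparisons, since a fit of each line alone gives only the 2 within lines; 10 of them leave out 1 array. In HBL2 the count was 10 with a 75th percentile filter, 3 without _x_at and _s_at probe sets (27 genes measured) and 12 with the beta-actin value as a covariate. In JEKO it was 1 with the 75th percentile filter, 3 with array weights, 4 with each line fitted alone, 1 with the median over probe sets and 2 with the beta-actin covariate. For the difference between the changes it was 2 with no intensity trend and 1 with the 3 arrays of lowest beta-actin value left out, and in PT cells it was 7 under each of these. In BR cells it was 9 without _x_at and _s_at probe sets. The counts of the main fit between the lines include PSMD5, whose passing the filter had fixed its difference there. Leaving out 1 array gave 3 to 9 in HBL2, 0 to 4 in JEKO, 2 to 7 for the difference between the changes, 2 to 15 in PT cells and 12 to 22 in BR cells. With 1 JEKO array left out, the lone array is assumed to vary like the other groups.

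Replicate numbers were also tried as a replicate block, since the labels do not say whether same-numbered arrays belong together. The deviations of same-numbered HBL2 arrays from their group means correlated at 0.0167, 0.136 and 0.00752. Those of HBL2 arrays with different numbers correlated at -0.202 to 0.155. In groups of 2 or 3 arrays the deviations sum to 0, so these values cannot decide whether the numbers pair the samples. The block gave 7, 0, 7, 11 and 19 calls, of which 5, 0, 7, 10 and 16 were among those reported.

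Among values called in the reported fit or in the alternative, directions turned in 5 cases; 99 other values, called in neither, also turned. With the median over probe sets PSMA3 gave 0.47 for the difference between the changes and -0.29 in PT cells, PSME3 -0.25 in PT cells and PSMC2 -0.017 in BR cells. Without _x_at and _s_at probe sets PSMC2 gave -0.021 in PT cells. The causes were not tested. Over all genes, counts moved by more than 1.5 times too: HBL2 1711 calls, against 2684 with array weights and 1118 without HBL2 BR replicate 2, and JEKO 622 calls, against 120 without JEKO BR replicate 2 and 1032 with array weights. For the difference between the changes, 1266 calls became 1948 with array weights and 619 with the 3 arrays lowest in beta-actin left out. PT cells had 3361 calls, against 1974 without JEKO PT replicate 2, and BR cells 4083, against 2444 without JEKO BR replicate 2. The 10 arrays and the rank-like score limit what small differences can show.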
